A study of Homo sapiens with 8 samples.

Results

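The genes described here are 10 regulators of the passage from G1 into S phase: the D-type cyclins CCND1, CCND2 and CCND3, their kinases CDK4 and CDK6, the E-type cyclins CCNE1 and CCNE2, and the CIP/KIP inhibitors CDKN1A (p21), CDKN1B (p27) and CDKN1C (p57). They were chosen by name as a functional group, with earlier results of these data known. Each of the 10 symbols matched 1 row of the 58787 gene rows in the deposited count table. Counts were recorded for 9 of them, and CCND2 was listed at 0 in every library.

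RNA sequencing was carried out on IMR32 cells, an established human neuroblastoma line with amplified MYCN that the labels describe as a wild-type neuroblast from brain. One group had 4 libraries from cells given CR31B, a rocaglate that blocks the translation initiation helicase eIF4A, at its IC50 for 6 h. The control group had 4 libraries from cells given the vehicle, DMSO at 0.1%, for the same 6 h. The series text calls the libraries biological replicates, numbered 1 to 4 in each group, and all come from this 1 line. The labels state that both replicate 1 libraries were read paired-end, and the remaining 6 single-end.

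D-type cyclins bind CDK4 or CDK6 and begin the phosphorylation of the retinoblastoma protein, which releases E2F factors. E2F factors then drive transcription of E-type cyclins, which activate CDK2 and complete the step into S phase. CIP/KIP proteins bind cyclin-CDK complexes and inhibit CDK2 above all, while in neuroblastoma the cyclin D1 gene is known for its high expression.

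Of the 9 genes with counts, 4 differed between CR31B and DMSO in the single-end libraries. CDKN1B, at 1.58-fold, and CDK6, at 1.49-fold, were higher after CR31B. CCNE1, at 1.35-fold, and CDK4, at 1.12-fold, were lower. These calls used edgeR's quasi-likelihood test on 3 libraries per group with a Benjamini-Hochberg adjusted p under 0.05, at which 41.3% of all 16696 genes tested were called, 23.8% as higher and 17.6% as lower, so that 4 of 9 is close to the share over all genes. In pair 1 all 4 ran in the opposite direction, and in the fit of all 8 libraries none of the 9 passed.

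The opposite course of pair 1 held across the table: of the 6901 genes that passed in the single-end fit, 6822 ran the other way between the libraries labelled CR31B replicate 1 and DMSO replicate 1. With all 8 libraries in 1 edgeR fit, 0 of 16518 genes were called, which is 0%, with 205 at an unadjusted p under 0.05, and DESeq2 and limma voom also called 0. Without the library labelled CR31B replicate 1 that fit called 6920 genes, and without DMSO replicate 1 it called 6906. Replicate 1 and paired-end reading are the same 2 libraries, so these and an exchange of the CR31B and DMSO labels within the pair cannot be told apart. The labels were kept as given, and every value of pair 1 and of the 8-library fit carries this limit. Libraries held 43687828 to 64715535 counts. All 14 neuroblast markers reached 1 CPM in each single-end library, with summed levels of 6921 to 7561 CPM after CR31B and 5645 to 5962 CPM in DMSO, although the list went both ways, with 6 called higher and 4 lower. Of 18 markers of other cell types 4 to 5 did so, with summed levels of 89.5 to 106 CPM and 64.6 to 68.5 CPM in the same order. The rise in that sum goes against most of the list: of the 7 tested, 1 (PDGFRA) was called higher and 3 lower, with a median log2 fold change of -0.76. The T cell and astrocyte markers CD3E and GFAP were listed at 0 in all 8 libraries, as was the macrophage marker CD68, for which 81.7% of exon bases lie in another gene model on the same strand, so its 0 says little about its level. The part of these marker differences in the results below was not tested.

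Levels of different genes were compared per length, as RPKM, reads scaled for library total and divided by the kilobases of annotated exon, averaged over all 8 libraries. CCND1, which encodes cyclin D1, had the highest level at 226 ± 11.8 RPKM (SD, n = 8). CDKN1B at 101 ± 24.5 RPKM, CDK4 at 97.4 ± 6.39 RPKM and CDK6 at 88.7 ± 19.6 RPKM followed. With all annotated exons as the length, their order differed between the groups. In the single-end DMSO libraries CDK4 was the highest of the 3 at 104 ± 1.98 RPKM, above CDKN1B at 78.3 ± 1.55 RPKM and CDK6 at 70.9 ± 3.25 RPKM (SD, n = 3). After CR31B CDKN1B was the highest at 124 ± 2.04 RPKM, above CDK6 at 105 ± 2.67 RPKM and CDK4 at 93.0 ± 1.70 RPKM (SD, n = 3). CDKN1A stood at 17.9 ± 3.70 RPKM and CCNE2 at 12.3 ± 1.06 RPKM. CCNE1 at 8.20 ± 1.49 RPKM and CCND3 at 5.65 ± 0.374 RPKM lay below them, CDKN1C had the lowest level above 0 at 2.24 ± 0.440 RPKM, and CCND2 was at 0. With the longest transcript as the length in place of all exons, CDK4 came to a mean over all 8 libraries of 149 RPKM, above CDKN1B at 107 RPKM, and CCND3 came to 13.7 RPKM, above CCNE1 at 10.2 RPKM, so these orders depend on the length used. The longest transcript has 2076 bases for CDK4 against 3168 of all exons, and 2657 against 2811 for CDKN1B. By that length CDK4 is the highest of CDK4, CDKN1B and CDK6 in both single-end groups, and their order does not change with CR31B.

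**Figure D1:**
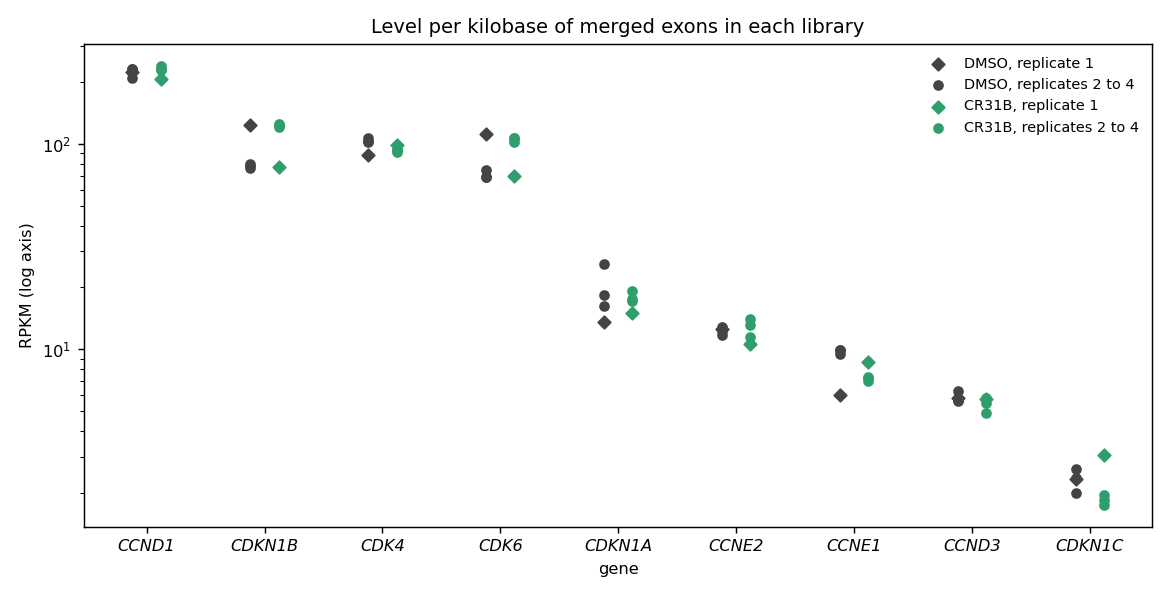
Level in RPKM, on a log axis, of the 9 genes with counts, with 1 point per library, colours for CR31B and DMSO and diamonds for replicate 1; CCND2, at 0, is not drawn. CCND1 lies highest, with a mean of 226 RPKM, and CDKN1C lowest, with a mean of 2.24 RPKM.

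Among the D-type cyclins, CCND1 (ENSG00000110092, GRCh38 chr11:69641087-69654474, plus strand) showed no called difference. Its CPM, a count scaled to a common library total with TMM factors, was 998, 1159, 1112 and 1123 in CR31B replicates 1 to 4 and 1085, 1013, 1117 and 1125 in DMSO replicates 1 to 4. The groups overlapped, with the lowest value in the library labelled CR31B replicate 1 and the highest in CR31B replicate 2. The single-end fit gave a log2 fold change of 0.062 ± 0.057 (SE; adjusted p = 0.423, edgeR with Benjamini-Hochberg adjustment), and its sign turned to -0.034 under upper quartile scaling and -0.017 under total-count scaling. The fit of all 8 libraries gave a log2 fold change of 0.015 ± 0.0775.

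CCND3 (ENSG00000112576, chr6:41934933-42050357, minus strand) encodes cyclin D3, the D-type cyclin best known from lymphoid cells. It ranged from 28.4 to 33.7 CPM after CR31B and from 32.6 to 36.2 CPM in DMSO over all 8 libraries, with overlapping groups. The single-end log2 fold change of -0.11 ± 0.0755 had an edgeR adjusted p of 0.271, but the call depended on scaling: upper quartile scaling gave -0.21 with an edgeR adjusted p of 0.0341, and total counts gave -0.19 with 0.0474.

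CCND2 (ENSG00000118971, chr12:4273772-4305350, plus strand) encodes cyclin D2, and its row held 0 in all 8 libraries, so no fold change is given. Other genes of this part of chromosome 12 were at 0 too. TIGAR, a regulator of glycolysis that is expressed in many cell types, and the fibroblast growth factor genes FGF23 and FGF6 were also at 0 in every library, as was the gene model ENSG00000285901. That model lies on the same strand and shares 13.8% of the CCND2 exon bases and 42.6% of the TIGAR exon bases. The 0 of CCND2 or TIGAR therefore need not mean that its RNA was absent. FGF23 and FGF6 lie on the minus strand, FGF6 outside that model, and their 0 does not show that reads were lost. The flanking genes were counted in every library: PARP11 had 1289 to 2016 counts and C12orf4 had 2946 to 4233 counts. Why the genes between these flanking genes were at 0 was not tested.

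For the D-cyclin kinases, CDK6 rose and CDK4 fell in the single-end libraries. CDK6 (ENSG00000105810, chr7:92604921-92836594, minus strand) had 1253, 1306 and 1314 CPM in CR31B replicates 2 to 4 and 916, 843 and 850.3 CPM in DMSO replicates 2 to 4. Every CR31B library was above every DMSO library, with means of 1291 ± 32.8 and 869.8 ± 39.9 CPM (SD, n = 3). The log2 fold change was 0.57 ± 0.055, with an adjusted p of 2.31e-05 by edgeR with Benjamini-Hochberg adjustment. Offsets for GC content and gene length lowered it to 0.28, still called by edgeR with an adjusted p of 0.00222. The library labelled CR31B replicate 1 had 856 CPM and DMSO replicate 1 had 1366 CPM, a log2 difference of -0.67, so that each of these libraries was at or beyond the level of the opposite group. The interaction of treatment with layout was -1.24 ± 0.11 on the log2 scale with an edgeR adjusted p of 1.33e-05, and the fit of all 8 libraries gave 0.27 ± 0.20 with an edgeR adjusted p of 0.707.

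CDK4 (ENSG00000135446, chr12:57747727-57756013, minus strand) had 290.4, 301 and 293 CPM in CR31B replicates 2 to 4 and 337, 324 and 329 CPM in DMSO replicates 2 to 4. These groups did not overlap, although the difference was small beside that of CDK6. Its log2 fold change of -0.16 ± 0.046 had an edgeR adjusted p of 0.0173. The CDK4 call was lost with GC and length offsets, at a log2 fold change of -0.10 and an edgeR adjusted p of 0.114, and when CR31B replicate 2, CR31B replicate 4, DMSO replicate 2 or DMSO replicate 4 was left out, with edgeR adjusted p values of 0.0581 to 0.0650. In pair 1 the library labelled CR31B had 313 CPM against 281 CPM, a log2 difference of 0.15, and the interaction was 0.32 ± 0.093 with an edgeR adjusted p of 0.0192. TSPAN31 overlaps 43.2% of the CDK4 exon bases on the opposite strand. The deposited counts carry the word reverse in their name, which may stand for reverse-stranded counting. No strand setting is stated in the sources used here, so reads from the shared stretch cannot be assigned with certainty. TSPAN31 had 11870 counts over the 8 libraries against 134838 for CDK4, and its single-end log2 fold change was -0.025 ± 0.060 (edgeR adjusted p = 0.767).

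The E-type cyclins differed from each other in course. CCNE1 (ENSG00000105173, chr19:29811898-29824308, plus strand), which encodes the CDK2 partner cyclin E1, had 18.5, 17.9 and 18.7 CPM in CR31B replicates 2 to 4 and 25.3, 24.2 and 25.2 CPM in DMSO replicates 2 to 4. All CR31B libraries of this layout were lower than all DMSO libraries, with means of 18.4 ± 0.427 and 24.9 ± 0.637 CPM (SD, n = 3). CCNE1 fell by 0.44 ± 0.062 on the log2 scale with an edgeR adjusted p of 0.000299. Pair 1 again held the reverse, with 22.1 CPM in the library labelled CR31B and 15.2 CPM in DMSO, a log2 difference of 0.54. The interaction was 0.97 ± 0.13 (edgeR adjusted p = 0.000171), and all 8 libraries together gave -0.20 ± 0.16 with an edgeR adjusted p of 0.707.

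CCNE2 (ENSG00000175305, chr8:94879770-94896678, minus strand), encoding cyclin E2, ranged from 46.5 to 61.4 CPM after CR31B and from 51.7 to 56.5 CPM in DMSO over all 8 libraries. The groups overlapped throughout, and the single-end log2 fold change of 0.067 ± 0.073 had an edgeR adjusted p of 0.502. Its sign was negative under upper quartile scaling at -0.030, total counts at -0.013 and GC and length offsets at -0.072. Genes on the opposite strand overlap 37.1% of the CCNE2 exon bases. INTS8, one of them, had 23547 counts over the 8 libraries against 23415 for CCNE2, so an unstranded count could mix them to a greater degree than at CDK4. The part of INTS8 reads in the CCNE2 values was not tested.

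The CIP/KIP inhibitors showed 3 different courses. CDKN1B (ENSG00000111276, chr12:12715058-12722371, plus strand), encoding p27, had the largest difference among the 9 genes. It stood at 342, 348 and 353 CPM in CR31B replicates 2 to 4 and at 224, 220.2 and 216 CPM in DMSO replicates 2 to 4. The 2 groups were far apart beside their spread, with means of 348 ± 5.74 and 220.1 ± 4.37 CPM (SD, n = 3). The log2 fold change was 0.66 ± 0.046 (edgeR adjusted p = 3.58e-06). Among all 16696 genes tested, 1139 had a larger rise, which is 6.82%, so CDKN1B was high in the ranking but not at its end. In pair 1 the library labelled CR31B had 217 CPM and DMSO had 349.5 CPM, close to the single-end values of the opposite group. The log2 difference of pair 1 was -0.69, and the interaction was -1.35 ± 0.093 with an edgeR adjusted p of 3.32e-06. With all 8 libraries the log2 fold change was 0.33 ± 0.21 and the edgeR adjusted p was 0.707. A count of reads in bulk RNA reports the mean over all cells of a library, so more cells with CDKN1B RNA and more of it per cell cannot be told apart, and the same holds for every gene here.

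CDKN1A (ENSG00000124762, chr6:36676460-36687339, plus strand) encodes p21, the inhibitor best known as a p53 target. It had 45.8, 53.7, 52.4 and 58.9 CPM in CR31B replicates 1 to 4 and 41.6, 55.8, 49.3 and 78.9 CPM in DMSO replicates 1 to 4. The groups overlapped, and DMSO replicate 4 was the highest of all 8 libraries. The single-end log2 fold change was -0.15 ± 0.14 with an edgeR adjusted p of 0.413, and leaving out DMSO replicate 4 turned it to 0.073. With no filter on low counts CDKN1A was called lower, at -0.17 with an edgeR adjusted p of 0.0485.

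CDKN1C (ENSG00000129757, chr11:2883213-2885773, minus strand) encodes p57, an imprinted inhibitor, and had 193 to 438 counts per library. It stood at 4.55, 4.85 and 4.32 CPM in CR31B replicates 2 to 4 and at 5.83, 6.48 and 4.96 CPM in DMSO replicates 2 to 4. The groups did not overlap, but the gap between CR31B replicate 3 and DMSO replicate 4 was narrow. The log2 fold change of -0.33 ± 0.12 missed the threshold with an edgeR adjusted p of 0.0512. With the replicate number as a block it was called, at -0.33 with an edgeR adjusted p of 0.0116, and over the 16 alternatives it was called in 10, with adjusted p values from 0.0116 to 0.188. The pair 1 libraries had 7.54 CPM (labelled CR31B) and 5.77 CPM (DMSO), and the interaction of 0.72 ± 0.24 had an edgeR adjusted p of 0.0345.

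**Figure D2:**
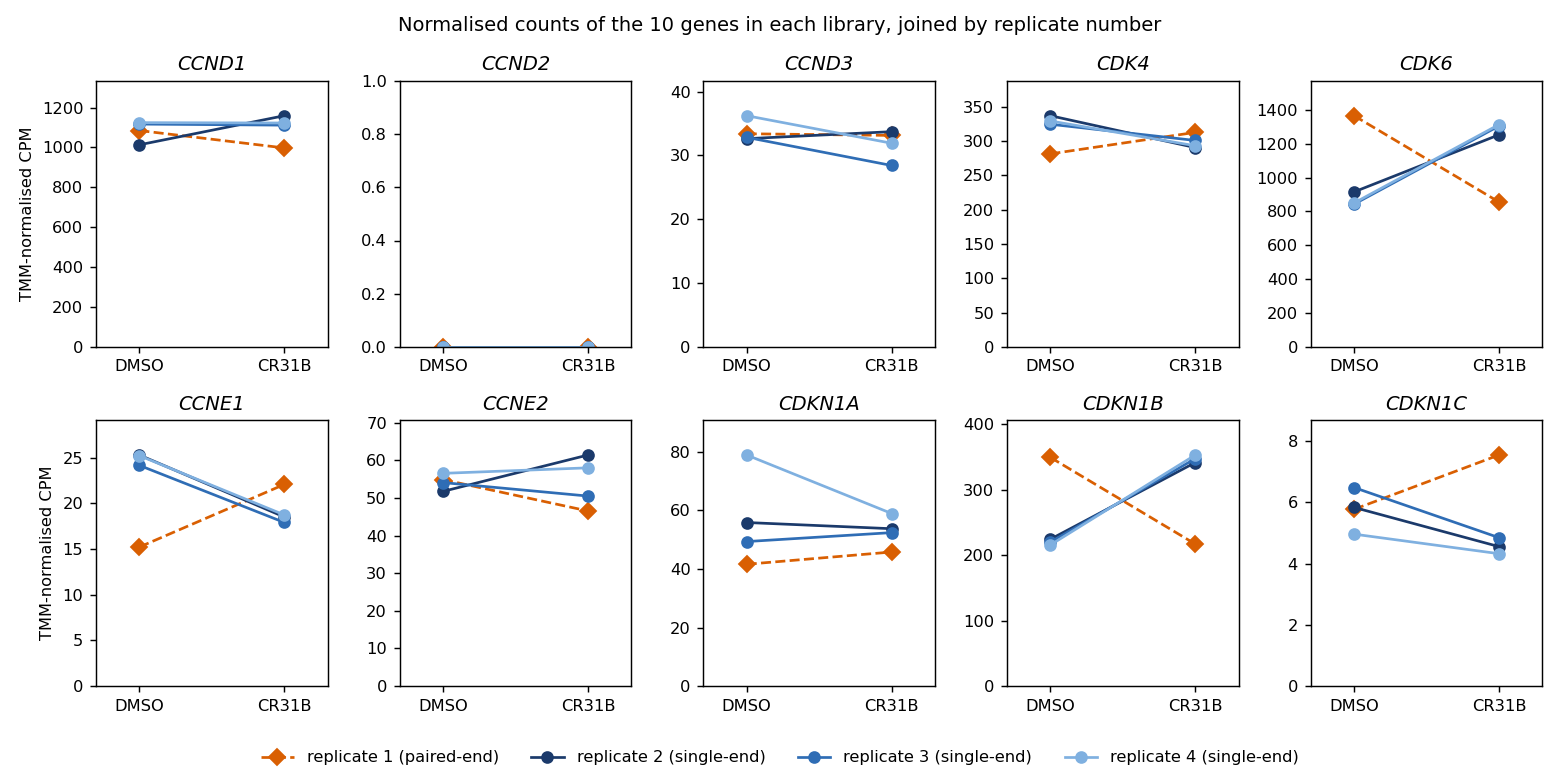
CPM of the 10 genes in each of the 8 libraries, with lines that join the DMSO and CR31B libraries of a replicate number and a dashed line for the paired-end replicate 1. For CDKN1B the single-end CR31B libraries lie at 342 to 353 CPM and the single-end DMSO libraries at 216 to 224 CPM, while the replicate 1 libraries lie at the level of the opposite group.

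The same-numbered libraries were also compared pair by pair, as log2 CPM of CR31B minus DMSO. CDKN1B gave 0.61, 0.66 and 0.71 in pairs 2 to 4, and CDK6 gave 0.45, 0.63 and 0.63. CCNE1 was the most even of the called genes, at -0.45, -0.43 and -0.43. CDK4 ran from -0.21 to -0.11 and CDKN1C from -0.42 to -0.20. For each of these 5 genes pairs 2 to 4 shared a sign that pair 1 did not, and the interaction with layout passed in 5 of the 9 genes, the same 5, where 42.5% of the 16518 genes tested passed it. CCND1, CCND3, CCNE2 and CDKN1A did not pass, with edgeR adjusted p values of the interaction from 0.125 to 0.624, which does not show that pair 1 and the other pairs were alike in these genes.

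**Figure D3:**
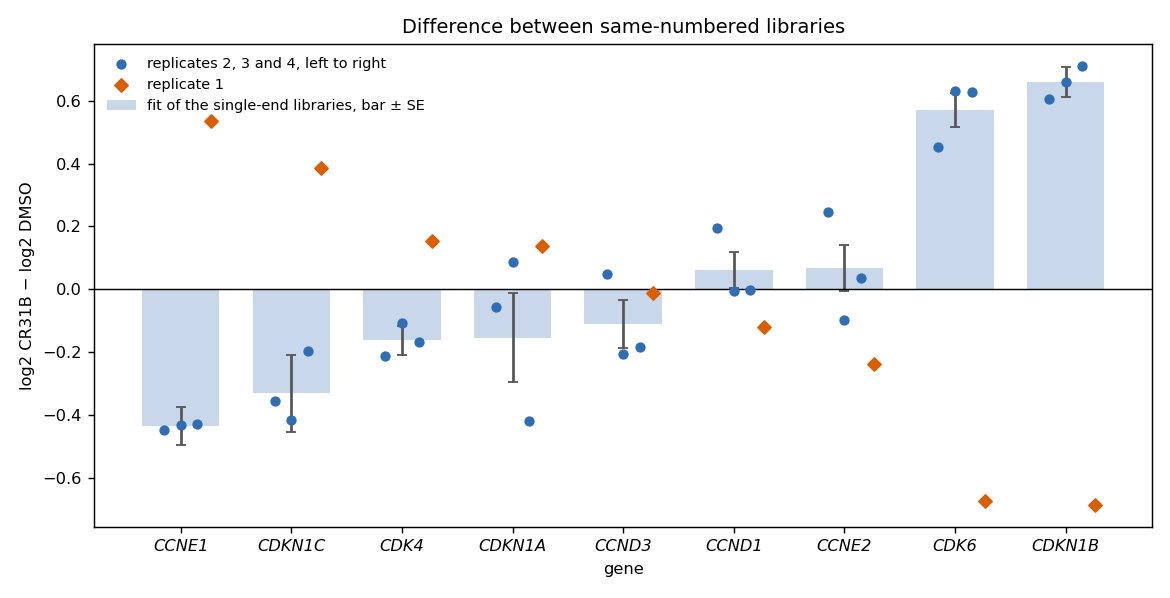
Log2 CPM difference, CR31B minus DMSO, of the 9 genes with counts in each of the 4 numbered pairs (points, diamonds for pair 1), with bars for the log2 fold change of the single-end fit and error bars for its SE. In CDKN1B, CDK6, CCNE1, CDK4 and CDKN1C the point of pair 1 is on the other side of 0 from the points of pairs 2 to 4.

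Because 2 of the called genes rose and 2 fell, ratios of RPKM between genes of the group were compared, which do not depend on how libraries are scaled. The size of each ratio does depend on the gene lengths used, which cancel only between the groups. No GC and length offsets were applied to the ratios. In the single-end fit those offsets moved the log2 fold change of CDK6 from 0.57 to 0.28 and that of CDK4 from -0.16 to -0.10. These ratios were chosen after the values had been seen and carry no test. The kinase ratio CDK6 to CDK4 was 1.13 ± 0.0233 after CR31B and 0.681 ± 0.0190 in DMSO in the single-end libraries (SD, n = 3). It was 0.708 in the library labelled CR31B replicate 1 and 1.26 in DMSO replicate 1. The RNA ratio of the inhibitor gene CDKN1B to the cyclin gene CCNE1 was 17.1 ± 0.431 after CR31B and 8.02 ± 0.254 in DMSO, against 8.92 and 20.8 in pair 1. Protein was not measured, so the ratio says nothing of the balance of p27 and cyclin E1 protein. In both ratios the single-end groups did not overlap, and the pair 1 values lay on the side of the opposite group. CCNE2 to CCNE1 was 1.78 ± 0.145 after CR31B and 1.26 ± 0.0651 in DMSO, a mean log2 difference of 0.50. Pair 1 ran the other way, at 1.22 in the library labelled CR31B and 2.09 in DMSO, a log2 difference of -0.77. CDKN1B to CDK6 was 1.17 ± 0.0140 and 1.10 ± 0.0346, a mean log2 difference of 0.088 where CDKN1B to CCNE1 had 1.10. In pair 1 CDKN1B to CDK6 was 1.11 in the library labelled CR31B and 1.12 in DMSO.

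Promoter sequence is shown for the 4 called genes, since they moved in both directions and differ in the motifs they hold. The RefSeq promoter table (GRCh38.p14) matched 6 of the 10 genes, and the 250 bases before an annotated start are printed 5′ to 3′ on the strand of the gene. Capitals mark CACGTG, the E-box bound by MYC family proteins, and CCAAT or its reverse complement ATTGG, the box bound by NF-Y. The windows are chr12:12717118-12717367 (plus) for CDKN1B, chr7:92836574-92836823 (minus) for the first of 2 CDK6 starts, chr19:29811741-29811990 (plus) for CCNE1 and chr12:57752311-57752560 (minus) for CDK4.
CDKN1B: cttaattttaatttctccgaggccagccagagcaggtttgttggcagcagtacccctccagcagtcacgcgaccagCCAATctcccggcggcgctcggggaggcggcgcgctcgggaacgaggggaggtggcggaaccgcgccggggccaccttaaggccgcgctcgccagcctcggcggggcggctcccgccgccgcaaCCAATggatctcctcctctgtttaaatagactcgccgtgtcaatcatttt
CDK6: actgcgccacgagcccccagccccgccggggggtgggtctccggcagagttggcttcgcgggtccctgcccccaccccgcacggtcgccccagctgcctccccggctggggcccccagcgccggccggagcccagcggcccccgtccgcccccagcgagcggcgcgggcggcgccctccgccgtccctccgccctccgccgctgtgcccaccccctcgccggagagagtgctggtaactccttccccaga
CCNE1: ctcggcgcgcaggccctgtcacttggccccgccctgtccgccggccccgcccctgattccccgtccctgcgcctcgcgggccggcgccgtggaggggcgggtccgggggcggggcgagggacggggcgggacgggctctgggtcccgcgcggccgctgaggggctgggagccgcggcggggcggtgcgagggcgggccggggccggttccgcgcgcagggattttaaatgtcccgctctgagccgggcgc
CDK4: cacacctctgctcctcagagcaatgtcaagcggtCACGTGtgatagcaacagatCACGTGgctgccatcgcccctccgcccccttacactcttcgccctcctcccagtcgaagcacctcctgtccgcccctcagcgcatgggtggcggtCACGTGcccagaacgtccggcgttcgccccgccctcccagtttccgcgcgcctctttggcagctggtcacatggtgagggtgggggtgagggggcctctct

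The CDK4 window held 3 E-boxes, which begin at positions -216, -196 and -101 from the start, and 6.34% of all 35116 promoter windows of this length held at least 1. CDKN1B held 2 CCAAT boxes, at -174 and -50, in a class that makes up 32% of windows. CDK6 and CCNE1 held neither motif in the windows printed. The GC box GGGCGG, a motif of SP1 family factors present in 42.6% of windows, matched 7 times in CCNE1, 3 times each in CDK6 and CDK4, and 1 time in CDKN1B. Both strands were searched, and no match to the E2F motifs TTTCCCGC and TTTGGCGC, the AP-1 motif TGANTCA, the CRE TGACGTCA, the amino acid response motif TGATGNAA or TATAAA was found in these 4 windows. For E2F only these exact forms were searched, so the windows may hold E2F sites of other forms. The CRE contains the core motif TGACG, which was counted apart and was not found in the 4 windows either. The window of the other CDK6 start, which is not printed, held 1 TGACG match, at -74. A match describes letters only, and none of these data measured binding.

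The genes whose course over the 8 libraries was most like that of the 3 genes with the largest called differences were found by Pearson's r of log2 CPM, among 10685 genes with a mean of at least 5 CPM. For CDKN1B they were GTF2H2C at r = 0.9991, ZNF136 at 0.9990 and EXO1 at 0.9988. For CDK6 they were REPS1 at 0.9982, NKIRAS1 at 0.9978 and ZFR at 0.9974. For CCNE1 they were SLC25A29 at 0.9945, TTL at 0.9937 and CAVIN4 at 0.9936. CDKN1B, CDK6 and CCNE1 each fall on 2 levels over the 8 libraries, so that these values of r mainly describe that shared division, and no p is given. GTF2H2C has a near-identical relative, GTF2H2, so its counts are uncertain.

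Other genes of the G1 pathway were read from lists set by function, and their counts are from the single-end edgeR fit. The lists were set with earlier results of these data known, so the share called in a list describes it and tests nothing. Over all genes tested in that fit 41.3% were called, 23.8% as higher and 17.6% as lower. Of the 4 INK4 genes, which encode inhibitors specific to CDK4 and CDK6, all were tested and 0 were called, with a median log2 fold change of -0.015 beside -0.0070 over all genes tested. Of 7 genes for CDK2, its activators and the CDK-activating kinase, 3 rose and 0 fell, a share of 42.9%, near that over all genes. The kinase CDK7 rose by 0.37 ± 0.060 and its assembly factor MNAT1 by 0.40 ± 0.058 on the log2 scale, and CDC25A, the phosphatase that activates CDK2, rose by 0.29 ± 0.049. Their edgeR adjusted p values were 0.000769, 0.000362 and 0.000957, and CDC25A came to 0.19 under upper quartile scaling.

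Among 13 pocket protein and E2F genes, 4 rose and 2 fell, a share of 46.2% called, near the 41.3% over all genes. Upper quartile scaling gave 3 and 6, and GC and length offsets gave 2 and 6. E2F8, a repressor type E2F, was at 46.8 ± 3.26 CPM after CR31B and 26.6 ± 0.849 CPM in DMSO (SD, n = 3), and E2F1, the activator, was at 130.3 ± 15.7 and 176 ± 15.1 CPM. E2F8 rose by 0.81 ± 0.065 on the log2 scale (edgeR adjusted p = 6.95e-06), and E2F1 fell by 0.43 ± 0.088 (edgeR adjusted p = 0.00289). RB1, the retinoblastoma gene and substrate of CDK4 and CDK6, rose by 0.35 ± 0.051 with an edgeR adjusted p of 0.000327, and by 0.15 with GC and length offsets. Of 18 E2F-driven S phase genes, 4 rose and 7 fell, 61.1% in all, with a median of -0.13. Upper quartile scaling moved that split to 2 and 12. CDC6, which loads the replicative helicase, rose by 0.68 ± 0.052 (edgeR adjusted p = 5.72e-06). UNG, the uracil DNA glycosylase, fell by 0.69 ± 0.073 and RRM2, a ribonucleotide reductase subunit, fell by 0.52 ± 0.092, with edgeR adjusted p values of 4.19e-05 and 0.00120.

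Among 16 genes for the turnover of G1 cyclins and CIP/KIP proteins, 6 rose and 4 fell, 62.5% in all. Their median was 0.054, and upper quartile scaling gave 5 and 6. FBXW7, the substrate receptor of the ligase that degrades cyclin E, rose by 0.65 ± 0.063 (edgeR adjusted p = 2.54e-05). DTL, a receptor in the degradation of p21, rose by 0.67 ± 0.052, and GSK3B, a kinase that marks cyclin D1 for degradation, rose by 0.64 ± 0.049, with edgeR adjusted p values of 6.09e-06 and 5.85e-06. With GC and length offsets GSK3B came to 0.41. Of 24 p53 pathway genes other than CDKN1A, 23 were tested, 8 rose and 3 fell. This share of 47.8% is near the 41.3% over all genes, and the split was 6 and 6 with GC and length offsets. SESN2, a stress-induced regulator of mTORC1, was at 36.5 ± 3.5 CPM after CR31B and 10.8 ± 1.27 CPM in DMSO, and rose by 1.76 ± 0.099 on the log2 scale (edgeR adjusted p = 1.11e-06). PHLDA3 rose by 0.88 ± 0.12 and GADD45A by 0.71 ± 0.056, with edgeR adjusted p values of 0.000295 and 6.61e-06.

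Of 17 genes for transcription factors that act on cyclin D and CIP/KIP genes, 16 were tested, 10 rose and 1 fell. The share called was 68.8%, against 41.3% over all genes, with a median of 0.45. Since this list too was set with earlier results known, its share is no test of the list. The split was 10 and 1 under upper quartile scaling and with GC and length offsets too. FOXO3 and FOXO1 encode factors known to drive CDKN1B transcription. FOXO3 rose by 0.77 ± 0.11 and FOXO1, a gene of low level at 2.99 ± 0.723 CPM after CR31B and 1.78 ± 0.262 CPM in DMSO, by 0.76 ± 0.19, with edgeR adjusted p values of 0.000242 and 0.00956. JUN, an AP-1 subunit that acts on CCND1, rose by 1.89 ± 0.12 with an edgeR adjusted p of 2.64e-06. In every one of these lists the genes called had the opposite sign in pair 1, as over nearly all genes called, and none was called in the fit of all 8 libraries.

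**Figure D4:**
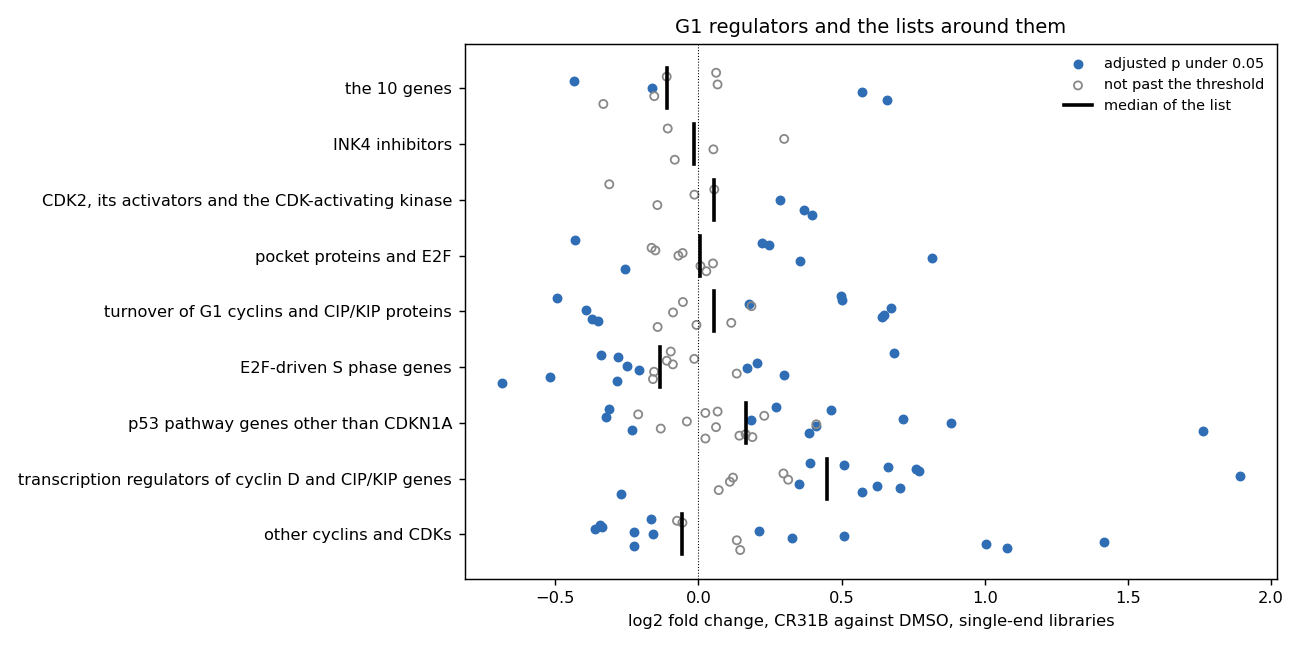
Single-end log2 fold change, CR31B against DMSO, of each tested gene in the 10 regulator genes and in the other lists, with filled points for genes called at an adjusted p under 0.05 and a black line at the median of each list. The transcription factor list lies furthest above 0, with a median of 0.45, while the 10 regulator genes hold 2 called points on each side of 0.

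The calls of the group were then read under 16 alternatives of the single-end fit. CDKN1B, CDK6 and CCNE1 were called in all 16 and kept their direction. CDK4 was called in 11 of the 16, with the same sign in each. The number of the 9 genes called ran from 3 to 6, with CDKN1B and CDK6 the only ones called as higher in each.

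**Figure D5:**
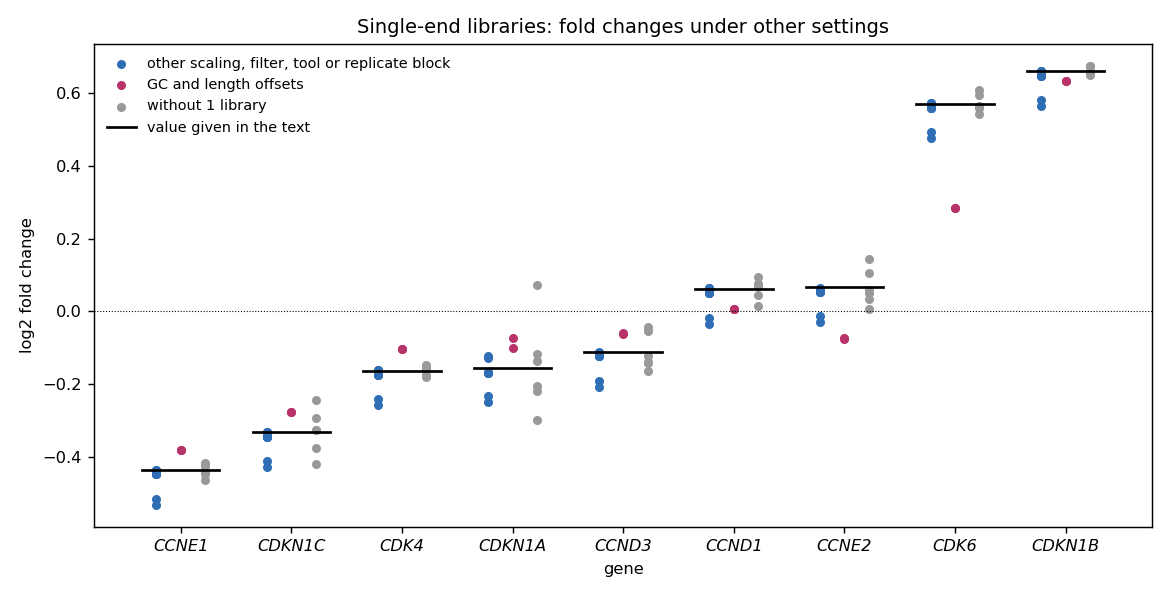
Single-end log2 fold change of each gene as given in the text (black line) and under the 16 alternatives, 1 point per alternative. CDKN1B and CDK6 stay above 0 and CCNE1 and CDK4 below 0 in every alternative, while CCND1, CCNE2 and CDKN1A have points on both sides of 0.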

How the data were processed

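The authors deposited raw counts for 8 libraries in 1 table, by Ensembl gene and with no normalisation. The submitters' processing notes name GRCh38, FastQC 0.11.7, STAR 2.7.2b, edgeR 3.36.0 and limma 3.50.3. The counting tool, its strand setting and its annotation are not stated in the sources used here. The word reverse in the name of the deposited counts may refer to the strand setting. Names, positions and lengths came from GENCODE 29 by identifier, with 58515 of 58787 matched.

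Counts were tested two-sided with edgeR 4.0.16 (R 4.3.3; glmQLFit and glmQLFTest) after filterByExpr and TMM scaling, with Benjamini-Hochberg adjustment over all tested genes and a threshold of 0.05. All 8 libraries were fitted with layout as a covariate, the 6 single-end libraries without one, and a further fit held the interaction. Pair differences were taken in log2 CPM (prior count 1) and have no test in pair 1, which is 1 library per group. RPKM is CPM per kilobase of merged exons. The fits were run on simulated counts with 200 genes changed, each by 1 on the log2 scale. All genes had the same spread, with no effect of layout or pair. Each fit recovered 100% of the changed genes. The regulator genes differed by less than 1 in the single-end fit, with 0.66 for CDKN1B the largest. Recovery of differences as small as theirs was therefore not tested. False calls were 13 of 213 with all 8 libraries and 21 of 221 with the single-end libraries. These shares are above the threshold of 0.05. Because the simulation held no reversed pair, it cannot show how the fit of all 8 libraries handles pair 1. Alternatives used DESeq2 1.42.0, limma 3.58.1 voom, other scalings and filters, GC and length offsets, a replicate block, and each library left out in turn. Where these replace the main setting, the text names them.

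Same-numbered single-end libraries deviated together (correlations of 0.208, 0.388 and 0.157 for replicates 2, 3 and 4), a pairing that comes from the data and not from a statement in the labels. The calls and counts printed come from the fit without a replicate term, and the fit with the replicate block is an alternative, named where it changes a call. P-values measure the spread between these samples, and counts include PCR duplicates, so counting precision is not that of independent molecules. No 2 libraries agreed within sampling noise.

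Genes named in other lists are up to 3 per list with the largest called differences and a mean of at least 1 CPM, and those most like a gene are the 3 with the highest r for each of the 3 largest called differences. The 10 genes and the lists were chosen with earlier results of these data known.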

Additional observations from a re-analysis of the deposited data

Results flagged for a closer look

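Within each group of 4 libraries, the gap between the most extreme library and its neighbour was divided by the whole range of the group, for the 9 genes in both groups. Dixon's 95% critical value, which chance passes in about 1 of 20 groups, was passed in 6 of 18. The 18 are 9 genes read in the same 8 libraries and are not independent, so their number is no test, and in all 6 the library that stood apart was replicate 1, as already described for pair 1. For CDKN1B the ratio was 0.916 under CR31B and 0.935 under DMSO. For CDK6 it was 0.868 and 0.862 in the same order. For CCNE1 it was 0.887 in DMSO, and for CDKN1C it was 0.837 in CR31B.

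The difference between CR31B and DMSO in pair 1 was unlike that in pairs 2 to 4 in 5 genes, by the interaction term of the edgeR fit. The log2 interaction, paired-end minus single-end, was -1.35 for CDKN1B, -1.24 for CDK6, 0.97 for CCNE1, 0.72 for CDKN1C and 0.32 for CDK4. Each has the opposite sign to the single-end difference of its gene, and the spread behind these tests comes from the single-end libraries alone. The paired-end arm is 1 library per group, and layout, replicate number and an exchange of labels within pair 1 cannot be told apart.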

How the results depend on the processing

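Leaving out each library moved the number of genes called in the fit of all 8 libraries between 0 and 6920, and only the removal of CR31B replicate 1 or of DMSO replicate 1 gave any. In the single-end fit it moved the number between 5582 and 6727, and the number of the 9 regulator genes called between 3 and 5. With the replicate block 8540 genes were called in the single-end fit and 0 in the fit of all 8 libraries, and among the 9 genes the block changed the call of CDKN1C alone. Of the genes called, 57.5% were higher under TMM scaling, 40.0% under upper quartile scaling (median log2 fold change of all genes -0.10), 46.0% with GC and length offsets and 43.1% under total counts. In all 8 libraries CCND1 turned to -0.026 under upper quartile scaling, -0.019 under total counts, -0.014 with GC and length offsets and -0.014 with these and the replicate block, and ran from -0.023 to 0.063 when single libraries were left out. Over the same removals CCNE2 ran from -0.066 to 0.068 and CDKN1A from -0.17 to 0.095. In the single-end fit CCND1 turned to -0.034 under upper quartile scaling and -0.017 under total counts. CCNE2 turned to -0.030 and -0.013 under these scalings, to -0.072 with GC and length offsets and to -0.075 with the replicate block added. CDKN1A ran from -0.30 to 0.073 when single libraries were left out. The longest transcript as the length moved the mean RPKM of CCND1 to 253, of CDK4 to 149, of CDKN1A to 24.1, of CCNE2 to 16.3, of CCND3 to 13.7, of CCNE1 to 10.2 and of CDKN1C to 2.86. Where a value moved, the cause was not tested. With 193 to 438 counts per library, CDKN1C has the widest counting error of the 9 genes.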

Other observations

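Larger differences than in any of the G1 regulators were found among 17 other cyclins and CDKs, of which 6 rose and 7 fell in the single-end libraries, with a median log2 fold change of -0.056. The share called was 76.5%, against 41.3% over all genes tested, in a list that was also set with earlier results known. The kinases of transcription led the list. CDK12, which phosphorylates RNA polymerase II during elongation, was at 239 ± 10.96 CPM after CR31B and 89.6 ± 5.45 CPM in DMSO (SD, n = 3), and rose by 1.42 ± 0.060 on the log2 scale with an edgeR adjusted p of 5.07e-07. Its relative CDK13 rose by 1.01 ± 0.063 with an edgeR adjusted p of 2.15e-06, and CDK8, the kinase of the Mediator complex, rose by 1.08 ± 0.048 with an edgeR adjusted p of 5.07e-07. In pair 1 the log2 differences were -1.47 for CDK12, -1.09 for CDK8 and -0.93 for CDK13.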
